A study of Mus musculus with 6 samples.

Results

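The proteasome genes of the mouse hippocampus are described here: the subunits of the core particle, the regulatory cap, the activators, the inhibitor and the assembly chaperones. Members were the protein-coding genes of the deposited comparison table whose symbol starts with Psm, a letter from a to g and a digit, leaving out the 3 immunoproteasome subunits Psmb8, Psmb9 and Psmb10. This gave 47 of the 30821 genes in that table, of which 18058 are protein-coding. Psmc3ip is matched by its symbol only, since it encodes a meiotic recombination protein, and it is counted apart, which leaves 46 members with a proteasome product.

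RNA was sequenced from whole hippocampi of male C57BL/6J mice, 1 mouse per library, in 2 groups of 3. In TAF15 OE mice a virus labelled AAV-CaMKIIα-TAF15 had been injected at 8 weeks of age into CA1 on both sides, and Control mice had received a control AAV by the same route. The labels give 31 days for all 6 mice. The CaMKIIα promoter drives expression mainly in excitatory neurons, so other cells of the tissue were not the intended site of the transgene. By its title the series is about memory and Npas4 transcription, and the comparison asks which transcripts differ in the hippocampus when TAF15, an RNA-binding protein, is raised.

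The proteasome is the large protease that degrades proteins tagged with ubiquitin. Its core particle is a stack of rings: outer alpha rings that gate entry and inner beta rings that hold the peptidases. A regulatory cap recognises, unfolds and threads in the substrate, and core and cap together form the 26S proteasome. In neurons its activity is known to shape synapses and plasticity, and microglia and cells exposed to interferon can exchange the catalytic subunits for those of the immunoproteasome and add the PA28 activator.

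The libraries held between 14965464 and 16067000 counts. Taf15 itself stood at 61.7, 63.5 and 53.0 CPM (the count scaled to its library's TMM-adjusted total, the level used throughout) in Control 1, 2 and 3, and at 249, 241 and 272 in TAF15 OE 1, 2 and 3. It was 4.27-fold higher (log2 fold change 2.1, SE 0.086, adjusted p = 4.97e-07), in the direction of the labels. Neuronal markers were present at 135 to 5090 CPM on average. Control 1 and TAF15 OE 1 stood apart from the other 4 libraries. Their summed level of 6 choroid plexus markers was 4.73% and 50.3% of the Control mean, against 141% to 164% in the others, and TAF15 OE 1 also had the highest microglial markers. Values that moved with these libraries are also given without both.

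Sequences around the RefSeq start are shown for Psmb5, the 26S subunit with the lowest fold change, and for Psmb8, its immune counterpart. They are also shown for the PA28 gene Psme1 and the nuclear activator gene Psme4, whose fold changes were above 0. Each sequence runs from 200 bases before to 25 bases after the RefSeq start (GRCm38.p6), on the strand of the gene. The capitals mark a match to a short motif on either strand. TGACNNNGC is the core of the antioxidant response element and TTCNNNGAA that of the gamma-activated site. The core of the interferon-stimulated response element (ISRE core) was searched as GAAA, any 2 bases, then GAAA.
Psmb5: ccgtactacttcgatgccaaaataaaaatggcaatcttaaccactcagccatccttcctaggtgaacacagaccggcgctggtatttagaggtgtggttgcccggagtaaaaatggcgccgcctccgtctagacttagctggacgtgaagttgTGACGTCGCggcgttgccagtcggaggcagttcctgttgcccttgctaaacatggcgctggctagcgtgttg
Psme4: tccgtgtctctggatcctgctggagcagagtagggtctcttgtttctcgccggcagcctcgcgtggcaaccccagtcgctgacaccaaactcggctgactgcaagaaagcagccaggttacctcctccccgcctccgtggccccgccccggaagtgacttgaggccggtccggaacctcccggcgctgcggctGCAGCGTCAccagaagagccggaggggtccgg
Psme1: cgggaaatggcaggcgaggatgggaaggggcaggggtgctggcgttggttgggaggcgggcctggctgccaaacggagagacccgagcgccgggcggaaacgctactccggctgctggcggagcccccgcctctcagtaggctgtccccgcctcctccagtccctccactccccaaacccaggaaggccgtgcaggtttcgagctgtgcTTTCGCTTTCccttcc
Psmb8: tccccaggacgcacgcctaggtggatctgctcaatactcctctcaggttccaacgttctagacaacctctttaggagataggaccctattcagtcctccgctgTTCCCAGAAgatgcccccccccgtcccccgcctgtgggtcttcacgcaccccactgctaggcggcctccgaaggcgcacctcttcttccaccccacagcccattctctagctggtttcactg

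The Psmb5 sequence lies at chr14:54617971-54618195 on the minus strand and holds TGACNNNGC at bases -47 to -39 from the start. Psme4 (chr11:30771575-30771799, plus strand) holds the same motif, read on the opposite strand, at -7 to 2. In Psme1 (chr14:55578294-55578518, plus strand) the match is to the ISRE core, on the opposite strand, at 10 to 19. Psmb8 (chr17:34197995-34198219, plus strand) holds TTCNNNGAA at -97 to -89. The start used for Psme1 is 371 bases downstream of that of the deposited table, and the start for Psmb8 is 474 bases downstream of it. By the deposited positions, both of these sequences therefore lie inside the gene and not before it.

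Of the 47 members, 39 were found by symbol in the RefSeq promoter table, which gives 300 bases a gene. TGACNNNGC was in 6 of the 39 (15.4%: Psmb5, Psmb6, Psmc6, Psmd12, Psmd9 and Psme4), against 12.4% of all 27025 promoters. The ISRE core was in 5 (12.8%: Psmb3, Psmd4, Psmd9, Psme1 and Psmg4), against 3.49%. The Psmd9 window, counted for both motifs, starts 58777 bases from the start in the deposited table. TTCNNNGAA was in 2 (5.13%) against 8.38%, and CCAAT, the box bound by NF-Y, in 14 (35.9%) against 37.9%. The median log2 fold change was -0.11 both for the 4 tested 26S subunits with TGACNNNGC and for the 21 without it. A match describes letters only.

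Transcripts of all 31 tested 26S subunits with a Psm symbol were present in every library, and no member passed the test in either direction. The cap subunits Adrm1 and Sem1 carry other symbols, so they are not members and are left out of the 26S counts and sums. Counted were 0 of 45 tested members by edgeR's quasi-likelihood test at an adjusted p below 0.05, while 9.32% of the 16758 genes tested were called higher and 5.95% lower. The smallest adjusted p was 0.0546, for Psmc3. Psma8 and Psmb11, the alpha subunit of the testis and the beta subunit of the thymus, were too low to test, with 0 to 12 and 1 to 8 counts per library. At an unadjusted p below 0.05, 5 members were lower (Psmb5, Psmb6, Psmc3, Psmc5 and Psmg3) and 1 was higher (Psme4), where 12.5% of all genes were lower and 16.8% higher by that rule. The limma-voom test and the limma-trend test on FPKM called 0 members. DESeq2 called 1 lower, Psmc3, where 7.41% of all genes were called lower.

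**Figure D1:**
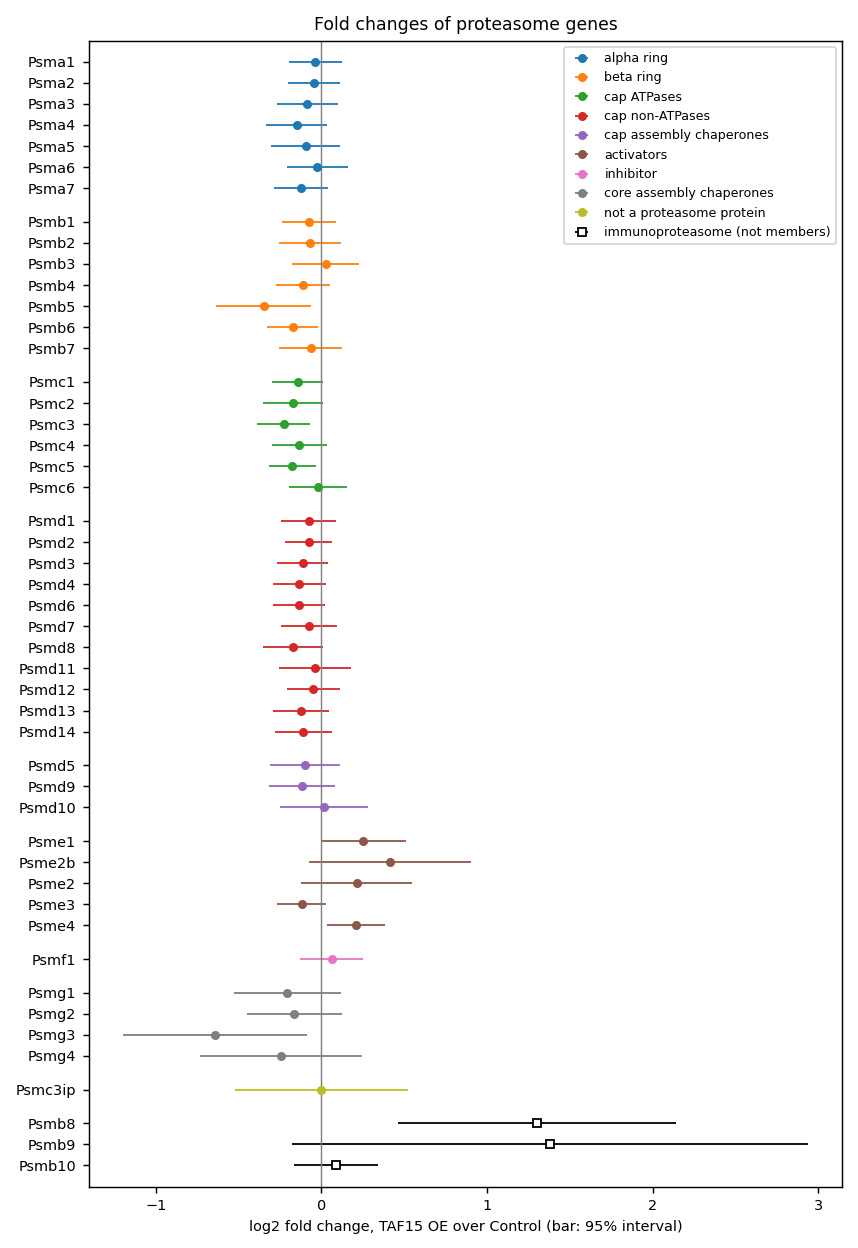
Log2 fold change of each tested member (TAF15 OE over Control) with its 95% interval from edgeR, by subgroup, 3 libraries a group; open squares are the 3 immunoproteasome genes, which are not members. All 13 alpha ring and cap ATPase points and the 11 cap non-ATPase points lie below 0, and 4 of the 5 activator points above it.

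The 26S subunits lay slightly below 0 on the log2 scale nearly without exception. Of the 31 tested, 30 had a fold change below 0, where 46.3% of all genes did. Their median was -0.11 (range -0.35 for Psmb5 to 0.03 for Psmb3), beside a median of 0.03 over all genes tested. The sizes were small: the median absolute log2 fold change was 0.11, against 0.19 over all genes. The 95% interval lay within 0.5 of 0 on the log2 scale for 30 of the 31, Psmb5 being the exception. All 3 TAF15 OE libraries lay below all 3 Control libraries in 6 of the 31 (Psmb6, Psmc1, Psmc3, Psmc5, Psmd6 and Psmd13) and above them in 0. Among all genes, 15.5% were separated downward and 19.1% upward.

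Summed over the 31 subunits, the level relative to the Control mean came to 102%, 104% and 93.9% in the Control libraries. The TAF15 OE libraries, in the same order, held 90.0%, 94.6% and 93.1%. Control 3 lay below TAF15 OE 2, so the groups overlapped. By the median log2 level of the 31 subunits relative to the Control mean, Control 3 stood at -0.09, within the TAF15 OE range of -0.15 to -0.06. The median over the members varied between libraries of a group with an SD of 0.062. All subunits were read in the same libraries, so the signs of their fold changes are not separate observations.

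The sign of this shift depends on the scaling of the libraries. Under scaling on 35 presynaptic release genes the median of all tested genes moved from 0.03 to 0.32 and that of the members from -0.10 to 0.20. By that scaling 14 members were called higher, where 41.5% of all genes were, and 0 lower. The members' median stayed below that of all genes under both. The 13 neuronal markers had a median of -0.27, with 8 called lower, and their summed level was 108%, 93.6% and 98.3% of the Control mean in Control and 82.1%, 77.0% and 72.5% in TAF15 OE. In the other direction, 10 of 12 microglial, 6 of 8 astrocyte, 6 of 7 oligodendrocyte, 7 of 8 tested lymphocyte and 3 of 6 endothelial markers were called higher. In bulk tissue, fewer cells of a type and less RNA per cell cannot be told apart, and the part of cell makeup in the proteasome values was not tested.

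**Figure D2:**
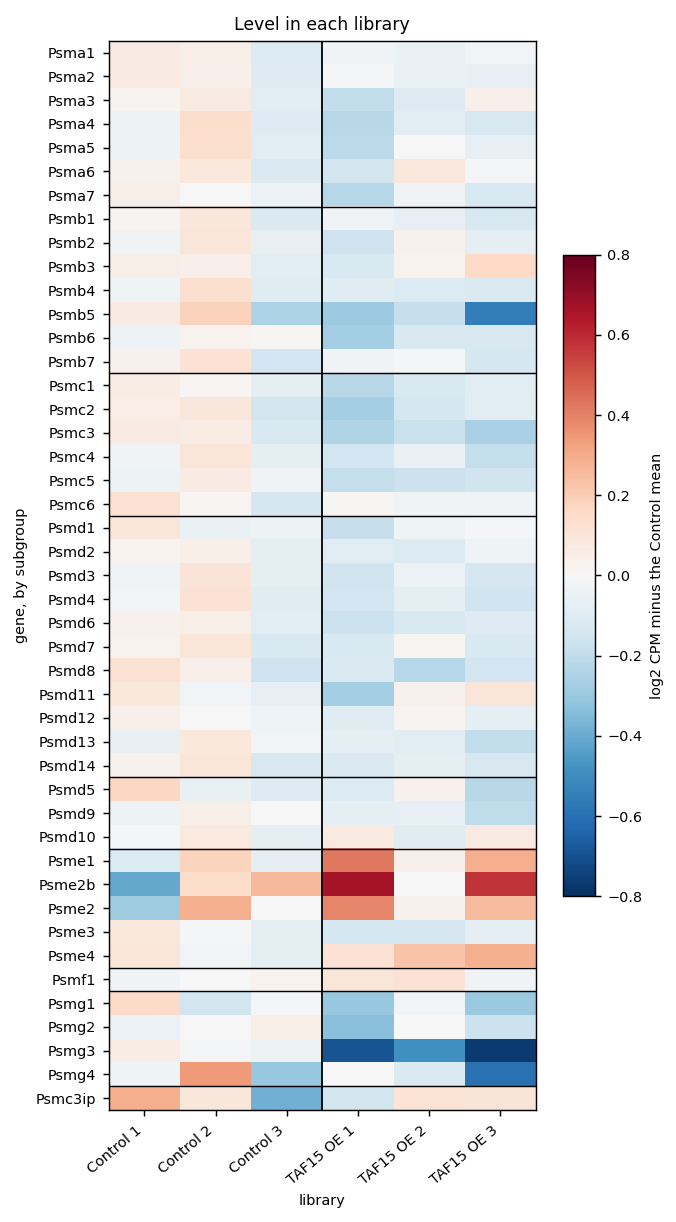
Log2 CPM of the 45 tested members in each of the 6 libraries minus the mean of the 3 Control libraries, by subgroup (black lines); red is above and blue below the Control mean. Control 3 is below the Control mean for most 26S subunits, and the PA28 genes Psme1, Psme2 and Psme2b are highest in TAF15 OE 1.

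In the core particle, 13 of the 14 tested subunits had a fold change below 0, with a median of -0.09 for the alpha ring and -0.08 for the beta ring. The alpha rings gate the channel, and their 7 subunits ran from -0.15 to -0.02. The lowest p among them was that of Psma4, at 54.3, 61.5 and 52.0 CPM in Control and 47.8, 52.5 and 51.0 in TAF15 OE. TAF15 OE 2 lay above Control 3, and the log2 fold change of -0.15 (SE 0.085) did not pass (adjusted p = 0.273).

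Among the catalytic subunits, Psmb5 carries the chymotrypsin-like site, Psmb6 the caspase-like site and Psmb7 the trypsin-like site. Psmb5 (ENSMUSG00000022193, chromosome 14, 54614120 to 54617995, minus strand) stood at 39.4, 42.8 and 31.6 CPM in Control and 30.7, 33.1 and 25.6 in TAF15 OE. TAF15 OE 2 reached above Control 3, so the groups overlapped, and the means ± SD were 37.9 ± 5.70 and 29.8 ± 3.81 (n = 3 each). Its log2 fold change of -0.35 (SE 0.13, 95% interval -0.63 to -0.06) was the lowest of the 26S subunits and did not pass (adjusted p = 0.0982). Without Control 3 it was -0.47 and passed (adjusted p = 0.0438). Of its exon bases, 12.1% are shared with Mir686 on the same strand.

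Psmb6 stood at 85.6, 89.9 and 88.7 CPM in Control and 72.7, 81.0 and 80.5 in TAF15 OE. Every TAF15 OE library was below every Control library, at a log2 fold change of -0.17 (adjusted p = 0.126, SE 0.071). Psmb7 stood at 58.5, 62.1 and 51.5 CPM in Control and 56.2, 56.6 and 51.8 in TAF15 OE. Its groups overlapped fully, and the log2 fold change was -0.06 (adjusted p = 0.677, SE 0.086). The other 4 tested beta subunits, which are structural, ran from -0.11 (Psmb4) to 0.03 (Psmb3).

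The ATPase ring of the cap unfolds substrates and opens the gate, and its 6 genes had the lowest median of the 26S subgroups, -0.16. Psmc3 (ENSMUSG00000002102, chromosome 2, 91054009 to 91066369, plus strand) stood at 148, 147 and 130 CPM in Control and 120, 125 and 118 in TAF15 OE. The groups did not overlap, and the means ± SD were 142 ± 10.1 and 121 ± 3.74. The log2 fold change was -0.23 (SE 0.072, 95% interval -0.39 to -0.07, adjusted p = 0.0546). It passed with DESeq2 (-0.25, adjusted p = 0.0296) and without Control 3 (-0.29, adjusted p = 0.0415). In the authors' deposited table its log2 value was -0.26 with an adjusted p of 0.0258, the only member below 0.05 there, and 0 members were marked significant. Exons of Slc39a13 on the opposite strand cover 8.25% of its exon bases, and the strandedness of the counts is not given.

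Psmc5 had 120, 129 and 121 CPM in Control and 108, 109 and 111 in TAF15 OE, again with no overlap (log2 fold change -0.18, SE 0.065, adjusted p = 0.0947). Psmc1, at 138, 134 and 126 against 113, 122 and 125 CPM, was separated by a narrow gap, with a log2 fold change of -0.14 (adjusted p = 0.198). Psmc6 was nearest to 0 of the ATPases, at -0.02 (SE 0.080).

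**Figure D3:**
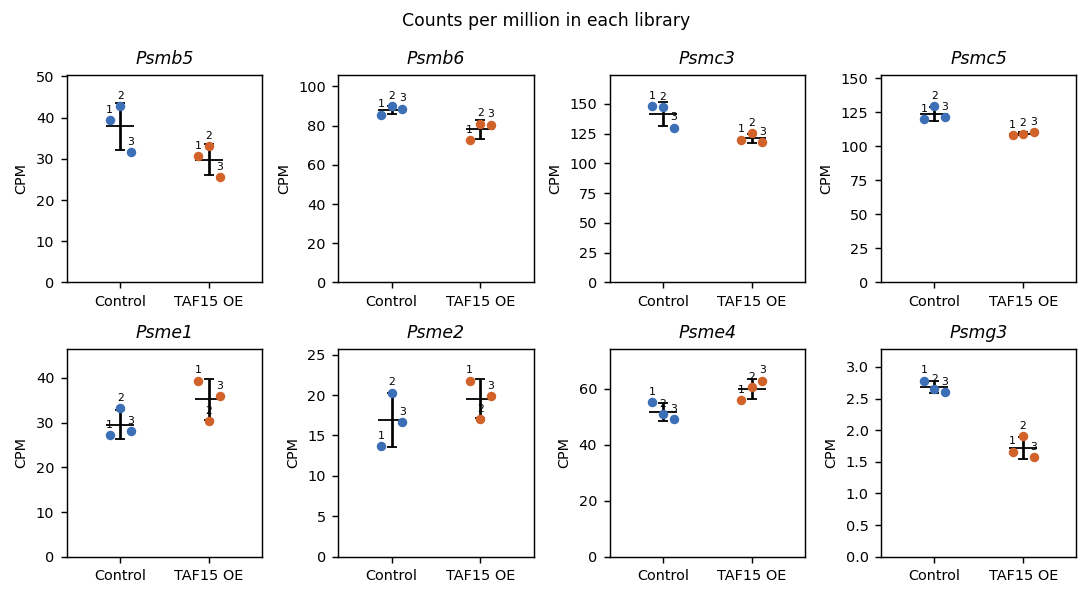
CPM in each library (points, numbered by replicate) with the group mean and SD (n = 3) for 8 members, each on its own axis from 0. Psmb6, Psmc3, Psmc5 and Psmg3 have no overlap downward and Psme4 none upward, while the groups overlap for Psmb5, Psme1 and Psme2.

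The 11 non-ATPase cap subunits with a Psm symbol all had a fold change below 0, with a median of -0.11. Of the cap subunits named otherwise, which are not members, Adrm1 was at -0.08 (SE 0.075) and Sem1 at 0.02 (SE 0.099). Neither was called. Psmd8, a lid subunit, had the smallest p of the 11, at 94.9, 89.8 and 77.8 CPM in Control and 80.3, 74.3 and 78.4 in TAF15 OE. Control 3 lay within the TAF15 OE range, and its log2 fold change of -0.17 (SE 0.083) did not pass (adjusted p = 0.195). Psmd4, a receptor for ubiquitin chains, stood at 94.7, 104 and 89.6 CPM in Control and 86.3, 90.7 and 86.1 in TAF15 OE. That was a log2 fold change of -0.13 (adjusted p = 0.262), with TAF15 OE 2 above Control 3.

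Psmd14, the deubiquitinase that removes the chain from the substrate, stood at 63.8, 66.4 and 56.8 CPM in Control and 57.4, 59.0 and 56.9 in TAF15 OE. All TAF15 OE libraries lay between Control 3 and the other Control libraries (log2 fold change -0.11, adjusted p = 0.398). Psmd11, a lid subunit linked to proteasome assembly in stem cells, had 63.1, 58.4 and 56.8 CPM in Control and 49.2, 60.9 and 63.6 in TAF15 OE. TAF15 OE 1 was the lowest of the 6 libraries and TAF15 OE 3 the highest. Its log2 fold change of -0.04 (SE 0.099) turned to 0.09 without both Control 1 and TAF15 OE 1, and to 0.26 under presynaptic scaling.

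The activators, which bind the ends of the core in place of the cap, lay mostly above 0. Of 5 genes, 4 had a fold change above 0 and the median was 0.21, but none was called. Psme4 encodes PA200, an activator found in the nucleus. It (ENSMUSG00000040850, chromosome 11, 30771726 to 30880361, plus strand) stood at 55.3, 50.8 and 49.2 CPM in Control and 56.0, 60.4 and 62.9 in TAF15 OE. Every TAF15 OE library was above every Control library, by a log2 fold change of 0.21 (SE 0.080, 95% interval 0.03 to 0.38, adjusted p = 0.109). It was the only one of the 45 tested members separated upward, where 19.1% of all genes tested were. Leaving out both Control 1 and TAF15 OE 1 gave a log2 fold change of 0.28 for Psme4 (adjusted p = 0.0570).

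Psme1 and Psme2 encode the alpha and beta subunits of PA28, the activator induced by interferon gamma, and lie 5.91 kb apart on chromosome 14. Psme1 stood at 27.3, 33.3 and 28.1 CPM in Control and 39.4, 30.3 and 35.9 in TAF15 OE. Psme2 stood at 13.7, 20.3 and 16.7 CPM in Control and 21.8, 17.0 and 19.8 in TAF15 OE. In both genes TAF15 OE 1 was the highest library and TAF15 OE 2 was below Control 2.

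The log2 fold change of Psme1 was 0.25 (SE 0.12, adjusted p = 0.176) and that of Psme2 0.21 (SE 0.15, adjusted p = 0.394). Without both Control 1 and TAF15 OE 1 they were 0.09 and -0.03. Psme2b, an intronless copy of Psme2 on chromosome 11, had a log2 fold change of 0.42 (adjusted p = 0.243, SE 0.22), and reads could be split between it and Psme2, which makes both values uncertain. Without both of those libraries Psme2b was at 0.09.

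Psme3 encodes PA28gamma, the nuclear form that interferon does not induce. It stood at 121, 114 and 109 CPM in Control and 104, 104 and 108 in TAF15 OE. It was separated downward by a narrow gap (log2 fold change -0.12, SE 0.068, adjusted p = 0.276). The inhibitor Psmf1, or PI31, had 28.7, 29.2 and 29.8 CPM in Control and 31.3, 31.6 and 28.7 in TAF15 OE. Its log2 fold change of 0.06 (adjusted p = 0.693) came with overlapping groups.

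The chaperones that assemble the core particle, Psmg1 to Psmg4, all had a fold change below 0, with a median of -0.22, and none was called. Psmg3 (chromosome 5, 139823592 to 139826885, minus strand) had the lowest fold change of all members. It stood at 2.78, 2.65 and 2.60 CPM in Control and 1.66, 1.91 and 1.58 in TAF15 OE. The groups were well apart (log2 fold change -0.64, SE 0.25, 95% interval -1.20 to -0.08, adjusted p = 0.117). It rests on 26 to 41 counts per library, and 9.68% of its exon bases are shared with Gm26938 on the same strand.

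Psmg1, the partner of Psmg2 in placing alpha subunits, had 12.0, 9.75 and 10.7 CPM in Control and 8.75, 10.7 and 8.80 in TAF15 OE. Psmg2 had 12.8, 13.2 and 13.7 CPM in Control and 10.5, 13.2 and 11.7 in TAF15 OE. Psmg4, the partner of Psmg3, had 6.18, 8.02 and 5.13 CPM in Control and 6.33, 5.85 and 4.19 in TAF15 OE. In each of these 3 genes at least 1 TAF15 OE library reached into the Control range. Their log2 fold changes were -0.20, -0.16 and -0.24, with adjusted p of 0.401, 0.453 and 0.520.

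Assembly of the ATPase ring is guided by Psmd5, Psmd9 and Psmd10. Psmd5 had 61.3, 52.5 and 50.8 CPM in Control and 50.8, 56.1 and 46.9 in TAF15 OE (log2 fold change -0.10, adjusted p = 0.550). Psmd9 had 25.7, 27.3 and 26.4 CPM in Control and 25.05, 25.25 and 23.01 in TAF15 OE (-0.12, adjusted p = 0.447). Psmd10, also known as gankyrin, had 12.8, 13.6 and 12.3 CPM in Control and 13.5, 12.0 and 13.5 in TAF15 OE (0.02, adjusted p = 0.942). Only Psmd9 of these was separated, and 25.5% of its exon bases lie opposite those of Gm26745. Psmc3ip, the member with no proteasome product, had 3.11 ± 0.713 and 3.10 ± 0.309 CPM and a log2 fold change of 0.00.

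Levels per gene length differed between subunits far more than between the groups, although the length used for each gene enters that spread. In FPKM, which scales fragments to gene length and depth, the alpha ring ran from 15.3 (Psma3) to 55.6 (Psma6) in Control and from 14.9 to 56.4 for the same genes in TAF15 OE. The beta ring ran from 16.5 (Psmb7) to 79.5 (Psmb1) and from 16.3 to 77.8. The cap ATPases ran from 16.4 (Psmc2) to 87.1 (Psmc5) and from 15.1 to 79.6. Although the rings hold their subunits in equal number, the coefficient of variation between genes was 50.3% in the alpha ring and 51.9% in the beta ring in Control. Across the 31 subunits the log2 mean FPKM of the groups correlated at Pearson's r = 0.996, a description over genes that share libraries and lengths. The lengths behind the values, such as 3894 bases for Psma3 and 1234 for Psma6, equal the summed exon bases of the annotated isoforms for 40 of the 47 members. An isoform not used in this tissue therefore lowers the FPKM. By CPM, which is not divided by length, Psma3 and Psma6 were closer, at means of 60.7 and 69.8 in Control. Psmb1 is not among the 40: its FPKM used 1036 bases, where GENCODE M21 gives 4595 exon bases.

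The immune catalytic subunits had log2 fold changes from 0.09 (Psmb10) to 1.38 (Psmb9). Their constitutive partners ran from -0.35 (Psmb5) to -0.06 (Psmb7). Psmb8, the counterpart of Psmb5, stood at 3.80, 4.71 and 3.60 CPM in Control and 15.5, 5.52 and 8.86 in TAF15 OE. All TAF15 OE libraries were above all Control libraries, and the gene was called higher (log2 fold change 1.30, SE 0.36, adjusted p = 0.0489). Without both Control 1 and TAF15 OE 1 the value was 0.77 and did not pass (adjusted p = 0.0616), and leaving out any 1 Control library or TAF15 OE 3 also ended the call (adjusted p from 0.0974 to 0.169). DESeq2 size factors (adjusted p = 0.0549), limma-voom (0.0745) and limma-trend on FPKM under 3 settings (0.0775 to 0.193) ended it too, so that 10 of 18 alternatives did. Psmb8 shares 14.7% of its exon bases with Gm20496 on the opposite strand.

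Psmb9, the counterpart of Psmb6, stood at 2.99, 5.77 and 5.46 CPM in Control and 22.7, 6.31 and 8.07 in TAF15 OE. The separation was wide for TAF15 OE 1 and narrow for TAF15 OE 2 (log2 fold change 1.38, SE 0.61, adjusted p = 0.214). Leaving out TAF15 OE 1 lowered it to 0.58 (adjusted p = 0.180), and leaving out Control 1 as well to 0.33 (adjusted p = 0.344). Psmb10, the counterpart of Psmb7, had 22.3, 26.5 and 26.9 CPM in Control and 30.5, 25.4 and 24.6 in TAF15 OE. Its log2 fold change was 0.09 (adjusted p = 0.665) and -0.12 without both Control 1 and TAF15 OE 1.

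Within a library the ratio of an immune subunit to its partner does not depend on the scaling. Psmb8 was 3.07%, 3.50% and 3.62% of Psmb5 by FPKM in Control and 16.1%, 5.32% and 11.01% in TAF15 OE. Psmb9 was 1.79%, 3.28% and 3.15% of Psmb6 in Control and 16.02%, 3.99% and 5.13% in TAF15 OE. Psmb10 was 76.3%, 85.5% and 105% of Psmb7 in Control and 109%, 90.0% and 95.2% in TAF15 OE. The first and second ratios were separated, by 1.53 and 1.38 on the log2 scale, and the third overlapped. The Psmb9 ratio difference was 0.77 when TAF15 OE 1 was left out. When Control 1 was left out with it, a setting chosen after the data were seen, the 3 differences were 1.10, 0.49 and -0.03.

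An exact two-sided permutation test gave p = 0.1 for each of the separated ratios and p = 0.4 for the third (adjusted over the 3 ratios, 0.15, 0.15 and 0.4). With 3 libraries against 3 the smallest p possible is 0.1. The constitutive subunits were the more abundant form for the Psmb5 and Psmb6 sites in every library.

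**Figure D4:**
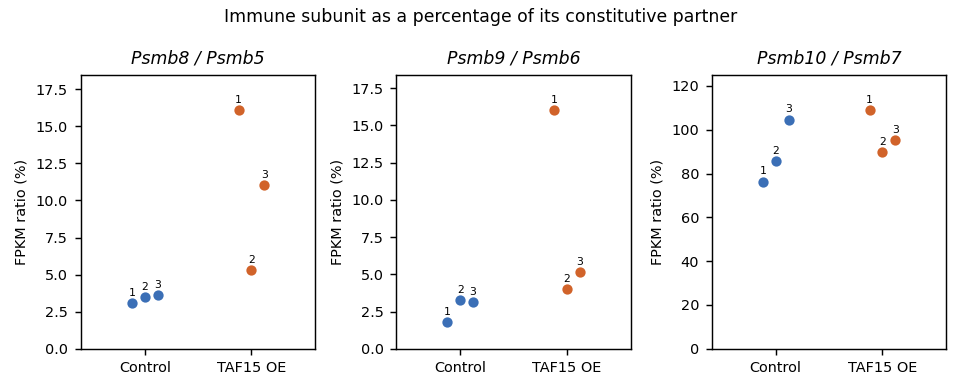
FPKM of each immune catalytic subunit as a percentage of its constitutive partner in each library (points, numbered by replicate), each panel on its own axis from 0. Psmb8 to Psmb5 and Psmb9 to Psmb6 are highest in TAF15 OE 1, at 16.1% and 16.02%, and Psmb10 to Psmb7 overlaps between the groups.

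TAF15 OE 1, the library with the highest Psmb8, Psmb9, Psme1 and Psme2, also had the highest summed microglial markers. These were 103%, 101% and 96.8% of the Control mean in Control and 328%, 195% and 205% in TAF15 OE. Summed interferon response genes (21 genes) were 72.6%, 106% and 122% in the Control libraries and 229%, 110% and 147% in those of TAF15 OE. For the summed PA28 genes Psme1 and Psme2 the values were 88.2%, 115% and 96.3%, and 132%, 102% and 120%. TAF15 OE 2 was the lowest of its group for the interferon, PA28 and immunoproteasome lists, and its microglial markers were close to those of TAF15 OE 3. Lymphocyte markers were higher as well (median log2 fold change 2.01), and their summed level was 194%, 42.3% and 63.4% in the Control libraries, against 540%, 585% and 1053%. Jchain, of plasma cells, had the highest mean level of them (101 CPM in TAF15 OE against 12.0) but did not pass (adjusted p = 0.132). The sum was mostly Jchain in Control 1 (27.9 of 31.6 CPM) and TAF15 OE 3 (156 of 172). For Control 2 its share was 3.18 of 6.90 CPM. By the median log2 level of the 8 tested markers relative to the Control mean, TAF15 OE 1 was highest at 2.60. TAF15 OE 2 had 1.36 and TAF15 OE 3 had 1.79, while the Control libraries ran from -0.24 to 0.30. The T cell marker Cd3e had 6, 4 and 6 counts in Control, against 53, 18 and 27, and Ms4a1, of B cells, was too low to test. Summed endothelial markers were 94.0%, 89.3% and 117% against 174%, 121% and 139%, again highest in TAF15 OE 1. The part of microglia, lymphocytes, endothelial cells or interferon in the PA28 and immunoproteasome values was not tested.

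**Figure D5:**
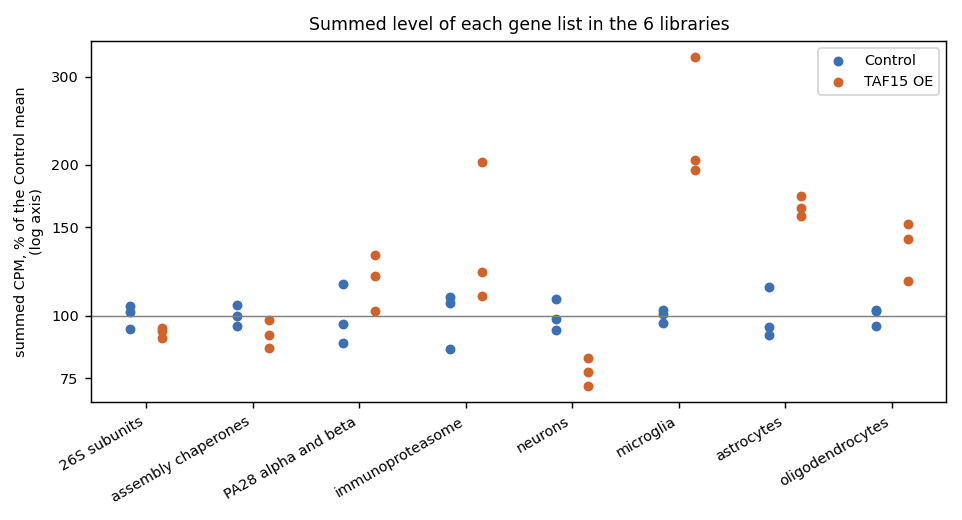
Summed CPM of 8 gene lists in each library as a percentage of the mean of the 3 Control libraries, on a log axis (blue Control, orange TAF15 OE). The 26S subunits lie between 90.0% and 104% in all 6 libraries, while microglial markers reach 195% to 328% in TAF15 OE.

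Of 39 further genes of the pathway that were tested, 2 were called higher (Nfe2l2 and Psmb8) and 1 lower (Ubqln4), where 9.32% of all genes were called higher and 5.95% lower. Nfe2l2 encodes the stress-induced transcription factor NRF2, which can raise proteasome subunit genes. It stood at 16.2, 20.6 and 20.6 CPM in Control and 44.9, 36.9 and 39.6 in TAF15 OE. All TAF15 OE libraries were well above Control (log2 fold change 1.08, SE 0.12, adjusted p = 4.24e-04), and the value was 0.87 without both Control 1 and TAF15 OE 1.

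Nfe2l1, the related factor that restores proteasome genes after inhibition, had 366, 364 and 395 CPM in Control and 362, 364 and 380 in TAF15 OE (log2 fold change -0.02, adjusted p = 0.842). Pomp, the chaperone of beta ring assembly, had 67.3, 68.8 and 65.8 CPM in Control and 69.6, 64.9 and 67.0 in TAF15 OE (-0.00, adjusted p = 0.986). Both overlapped between the groups, and both turned above 0 under presynaptic scaling (0.27 and 0.29).

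Ubqln4, a shuttle that carries ubiquitinated proteins to the proteasome, had 162, 146 and 150 CPM in Control and 134, 125 and 126 in TAF15 OE. Its groups did not overlap, and it was called lower (log2 fold change -0.25, SE 0.070, adjusted p = 0.0325). The call ended without Control 1, Control 3, TAF15 OE 2 or TAF15 OE 3 (adjusted p from 0.0718 to 0.122). It also ended with total counts (0.0513) and with limma-trend on FPKM under 3 settings (0.0609 to 0.0892), and the value was 0.05 under presynaptic scaling. Of the 13 genes for shuttling, extraction and chain extension, 10 had a fold change below 0, with a median of -0.15, and 7 were separated downward. Over all genes 46.3% were below 0 and 15.5% separated downward. None of the 4 ubiquitin genes or of the 2 activating enzymes was called.

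Of 21 interferon response genes, 1 was called, Irf8, a factor that microglia express constitutively. It had 9.58, 12.3 and 11.8 CPM in Control and 43.5, 26.7 and 27.7 in TAF15 OE, with no overlap (log2 fold change 1.54, SE 0.20, adjusted p = 0.00278). The list's median was 0.61, with 17 genes above 0 and 7 separated upward. Over all genes 9.32% were called higher and 19.1% separated upward. Tap1, the peptide transporter gene whose exons share bases with Psmb9, had a log2 fold change of 1.09 (SE 0.45) and did not pass (adjusted p = 0.202).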

How the data were processed

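RNA-seq of 6 hippocampal libraries (3 Control, 3 TAF15 OE, grouped by the sample titles) was used as deposited. Tools named in the submitters' processing notes are HISAT2 2.1.0, Bowtie2 2.2.3, TopHat2 and CASAVA, with build GRCm38. Their roles, the read counter, the annotation and the strandedness are not given in the sources used here. Deposited counts are raw whole numbers for each Ensembl gene. The deposited FPKM values equal each count scaled by gene length and by the total of its library. The authors' comparison table adds a normalised signal, a fold change as a ratio and a log2 value, and p-values, raw and adjusted, from a test the table does not name.

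Counts were tested in edgeR 4.0.16 (R 4.3.3): filterByExpr (minimum count 10), TMM scaling (factors 0.964 to 1.03), a quasi-likelihood F-test with group as the only term, and Benjamini-Hochberg adjustment over all 16758 genes tested, called below 0.05. The biological coefficient of variation was 13.1%. Each level is given as CPM on the TMM-scaled total. The fit was tested on simulated data. Library ratios used an exact permutation test in SciPy 1.17.1. Alternatives were other scalings, filters, DESeq2 1.42.0, limma 3.58.1 (voom, and trend on log2 FPKM, pseudocount 1 or 0.1), a replicate block and leaving out libraries.

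Members and lists were chosen with earlier results of these data known, so no p over a list is given. Values in every library were given by rule for the catalytic subunits, activators, inhibitor, assembly genes, Psmd4, Psmd11 and Psmd14, the smallest p of each subgroup, Psmb8 to Psmb10, Pomp, Nfe2l1, Nfe2l2 and called pathway genes; Psmc1, Psmc5, Psmc6, Psme2b and Tap1 were named after their values were seen. All 47 members were found in GENCODE M21, and 13 share exon bases with another gene. Each library is 1 mouse, and no 2 libraries were duplicates (smallest chi-square per degree of freedom 5.18). Figures were drawn with matplotlib 3.10.9.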

Additional observations from a re-analysis of the deposited data

How the results depend on the processing

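With 3 mice a group, the test is limited for small changes: the SE of the log2 fold change was 0.065 to 0.25 over the tested members, widest for genes with few counts such as Psmg3. A member that did not pass is therefore not shown to be equal between the groups. The annotation behind the counts, strandedness and cell makeup are further limits. The cause of the changes that follow was not tested, unless the setting itself shows it.

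The count of members called higher was 0 under every alternative except scaling on presynaptic genes, where it was 14. The count called lower was 1 with DESeq2 size factors and with DESeq2 (Psmc3 in both) and 2 with no filter (Psmb5 and Psmc3), and 0 to 2 when 1 library was left out (2 without Control 3: Psmb5 and Psmc3). The replicate numbers were not treated as pairs: same-numbered deviations correlated at 0.126, 0.0776 and 0.0871, although every library correlated best with its own number. With the replicate block, 2 members were called lower (Psmb5 and Psmc3) and 1904 genes higher and 1387 lower in all. Over all genes, the calls were 1562 higher and 997 lower in the main test, 1838 and 716 with total counts, 6951 and 130 with presynaptic scaling, 2008 and 1568 with no filter, 1061 and 441 with limma-trend on FPKM (1094 and 443 with a pseudocount of 0.1, 436 and 165 with no filter), and 877 to 1293 higher and 365 to 1208 lower when 1 library was left out.

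The members' median was -0.14 to -0.06 when 1 library was left out and turned to 0.20 under presynaptic scaling. Presynaptic scaling moved the median of all tested genes as well, from 0.03 to 0.32. That scaling also turned Psmb6 (0.12), Psmb7 (0.23), Psme3 (0.18), Psmd4 (0.16), Psmd11 (0.26), Psmd14 (0.19), Psmg1 (0.10), Psmg2 (0.13), Psmg4 (0.048), Psmd5 (0.20), Psmd9 (0.18), Psma4 (0.15), Psmc3 (0.069), Psmd8 (0.12), Pomp (0.29), Nfe2l1 (0.27) and Ubqln4 (0.046) above 0. Genes near 0 also changed sign elsewhere. Psmd11 was 0.012 with total counts, 0.0020 on FPKM with a pseudocount of 1 (with and without a filter), 0.0013 with 0.1, 0.085 without both Control 1 and TAF15 OE 1, and -0.12 to 0.043 when 1 library was left out. Psmd10 was -0.0035 with DESeq2 size factors, -0.0034 with DESeq2, -0.011 with no filter, -0.042 without both, and -0.034 to 0.058 when 1 library was left out. Psmb10 was -0.12 without both and -0.037 to 0.14 when 1 library was left out, and Psme2 was -0.028 without both. The Psmb10 to Psmb7 ratio difference was -0.032 without both, a setting added after the data were seen, where the exact permutation test on 2 libraries a group cannot go below 0.333. Pomp was 0.044 with total counts, 0.040 on FPKM with a pseudocount of 1 (with and without a filter), 0.043 with 0.1, 0.0019 at a mean of at least 1 CPM, and -0.054 to 0.011 when 1 library was left out. Nfe2l1 was 0.022 with total counts and on FPKM under each of 3 settings, and -0.055 to 0.012 when 1 library was left out.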
